A study of Mus musculus with 8 samples.

Results

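Matrix metalloproteinases (MMPs), ADAM sheddases, ADAMTS proteinases and the tissue inhibitors of metalloproteinases (TIMPs) were followed as a list of 50 genes in chronic stroke infarcts, among the 46078 Ensembl gene identifiers of each library. The identifiers were translated to gene symbols, and all 50 listed genes were found. They were 9 secreted MMPs, 7 membrane-anchored MMPs, 4 TIMPs, 7 transmembrane ADAMs, 18 ADAMTS proteinases and 5 ADAMTS-like proteins. Polyadenylated RNA was sequenced from infarcts of 8 wild-type male C57BL/6J mice, aged 18 months, at 7 weeks after DH stroke, in which the distal middle cerebral artery is occluded and the animal is then exposed to hypoxia. From 1 week after stroke, all 8 mice were injected subcutaneously 3 times per week for 6 weeks. The 4 vehicle mice (labelled Saline) received phosphate-buffered saline. The 4 HPβCD mice (labelled Cyclodextrin) received 4 g/kg of 2-hydroxypropyl-β-cyclodextrin, a ring-shaped sugar that carries cholesterol in its cavity. The comparison asks how this treatment altered gene expression in the infarct. Infarcts were identified by eye and dissected, and the amount of adjoining brain in each sample was not stated by the authors.

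MMPs are zinc-dependent endopeptidases that are made as inactive proenzymes and, once activated, cleave collagens, gelatins, proteoglycans, cytokines and growth factors. ADAMs cut the extracellular part of membrane proteins from the cell surface, whereas ADAMTS enzymes are secreted, bind matrix and process procollagen or cleave proteoglycans. TIMPs bind the active site of these enzymes. In the brain after ischemia the gelatinases are known for opening the blood-brain barrier, and later in the lesion the families take part in scar formation and matrix turnover. ADAMTS-like proteins resemble ADAMTS enzymes but have no catalytic domain.

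HPβCD-treated infarcts had higher expression of 4 of the 45 genes that were abundant enough to be tested, namely Mmp16, Mmp11, Adamts15 and Adamtsl5, and significantly lower expression of 0. All 4 were between 2.08 and 2.69 times the vehicle level. The test was edgeR's quasi-likelihood F test, with p-values adjusted by Benjamini-Hochberg over 14736 genes and a threshold of 0.05. Over all genes it called 173 higher, 1.17% of those tested, and 114 lower, 0.774%. At an unadjusted edgeR p under 0.05, 18 of the 45 genes were higher and 3 were lower, and over all genes 11.8% were higher, 16% lower and 27.8% either. DESeq2, run as an alternative, called 11 of the 45 genes higher and 2 lower, and also Mmp24 lower among the 5 genes that edgeR did not test, where it called 5.92% of its genes higher and 11.1% lower. For 12 of the 45 genes all 4 HPβCD infarcts were above all 4 vehicle infarcts, and for 1, Timp4, all were below, whereas the shares over all genes were 8.77% and 8.03%. The median log2 fold change was 0.42 over the 45 genes and -0.05 over all genes. By direction alone, 31 of the 45 genes were higher and 14 lower, and 45.9% of all tested genes were higher. The calls depended on single animals: leaving out any single animal among vehicle 1, vehicle 4, HPβCD 1, HPβCD 2 and HPβCD 3 reduced the number of called genes of the list to 0. Over all genes the same fits called 0, 0, 4, 0 and 0 genes, respectively, compared with 287 when every animal was kept, so the loss was not particular to the list.

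Levels are given below as counts per 1000000 (CPM), that is, counts divided by the library size after TMM normalisation. Where genes of the list are compared with each other, CPM was divided by the exon length in kilobases (CPM per kb). The sums of cell type markers, and the most abundant gene named for a marker, pathway or matrix list, are by CPM without this division. The 8 libraries held 16.6 M to 32.9 M gene counts. An error after a mean is the SD over the 4 animals of a group, and an error of a log2 fold change is its SE.

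Vehicle 1 and vehicle 3 stood apart from the other 6 infarcts by their neuronal transcripts. The 10 neuron markers summed to 1047 CPM in vehicle 1 and 6137 CPM in vehicle 3, but to between 20.4 and 42.6 CPM in the other vehicle infarcts and between 8.64 and 86.9 CPM in the HPβCD infarcts. Astrocyte markers followed with 2259 to 9777 CPM in the vehicle group and 643 to 2618 CPM in the HPβCD group. Oligodendrocyte markers lay at 1665 to 5264 CPM and 379 to 2264 CPM, respectively (0 of 8 called by edgeR, 0 at an unadjusted p under 0.05, 1 called lower by DESeq2), and B and plasma cell markers at 1426 to 2995 CPM and 259 to 555 CPM, with Jchain, Cd79b and Cd79a called lower among 8 genes. Fibroblast markers lay at 2873 to 6875 CPM in vehicle infarcts and 9794 to 10860 CPM in HPβCD infarcts, with 3 of 10 genes called higher by edgeR (Col1a2, Col1a1 and Pdgfrb), and 5 higher and 1 lower by DESeq2. The marker Slc6a13 was lower in all 4 HPβCD infarcts, at 15.8 ± 3.14 CPM in the vehicle group and 8.83 ± 0.649 CPM in the HPβCD group, and is named after its values were seen. Foamy macrophage markers lay at 12336 to 21678 CPM and 27764 to 41256 CPM, respectively, with Gpnmb called higher among 8 genes. The rise was not uniform, as 7 of these 8 genes were higher and 1 lower, with log2 fold changes from -0.21 to 1.48. Of them 6 had an unadjusted edgeR p under 0.05, and DESeq2 called 6 higher. The most abundant markers of these lists were Snap25 (neuron), Slc1a2 (astrocyte), Mbp (oligodendrocyte), Jchain (plasma cell), Dcn (fibroblast) and Ctsd (foamy macrophage). Of the microglia markers, Siglech was called lower among 6 genes. OPC markers (most abundant Pdgfra) summed to 209 to 348 CPM and 428 to 501 CPM, endothelial markers (Cdh5) to 499 to 594 CPM and 552 to 920.4 CPM, mural markers (Rgs5) to 300.1 to 479 CPM and 367 to 590.1 CPM, T lymphocyte markers (Lck) to 105 to 159 CPM and 91.6 to 232 CPM, and choroid plexus markers (Clic6) to 12.6 to 13.6 CPM and 13.1 to 20.2 CPM. In these 5 lists edgeR called 0 of 6, 8, 8, 7 and 3 tested genes (5, 3, 1, 1 and 1 at an unadjusted p under 0.05), and DESeq2 called 5, 2, 0, 1 and 1. The OPC sum followed Pdgfra, at 235 ± 73.6 and 430 ± 21.7 CPM, which is also on the fibroblast list. Of the 6 OPC markers 4 were lower, with a median log2 fold change of -1.77, and DESeq2 called 1 higher and 4 lower. The neuron list had 0 of 8 tested genes called by edgeR (8 at an unadjusted p under 0.05; DESeq2 called 9 lower of the 10) and the astrocyte list 0 of 8 (6 at that level; DESeq2 called 5 lower). In such bulk samples, fewer cells of a type and less RNA per cell cannot be told apart. The part of the cell composition in the differences below was not tested, and the main results are therefore also given without vehicle 1 and vehicle 3. Without them the median log2 fold change of the 45 genes was 0.20 and that of all genes 0.01, 6 genes changed sign, and 3 genes were called higher by edgeR (Mmp2, Mmp16 and Adamts15), where 0.485% of all genes were called higher.

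**Figure D1:**
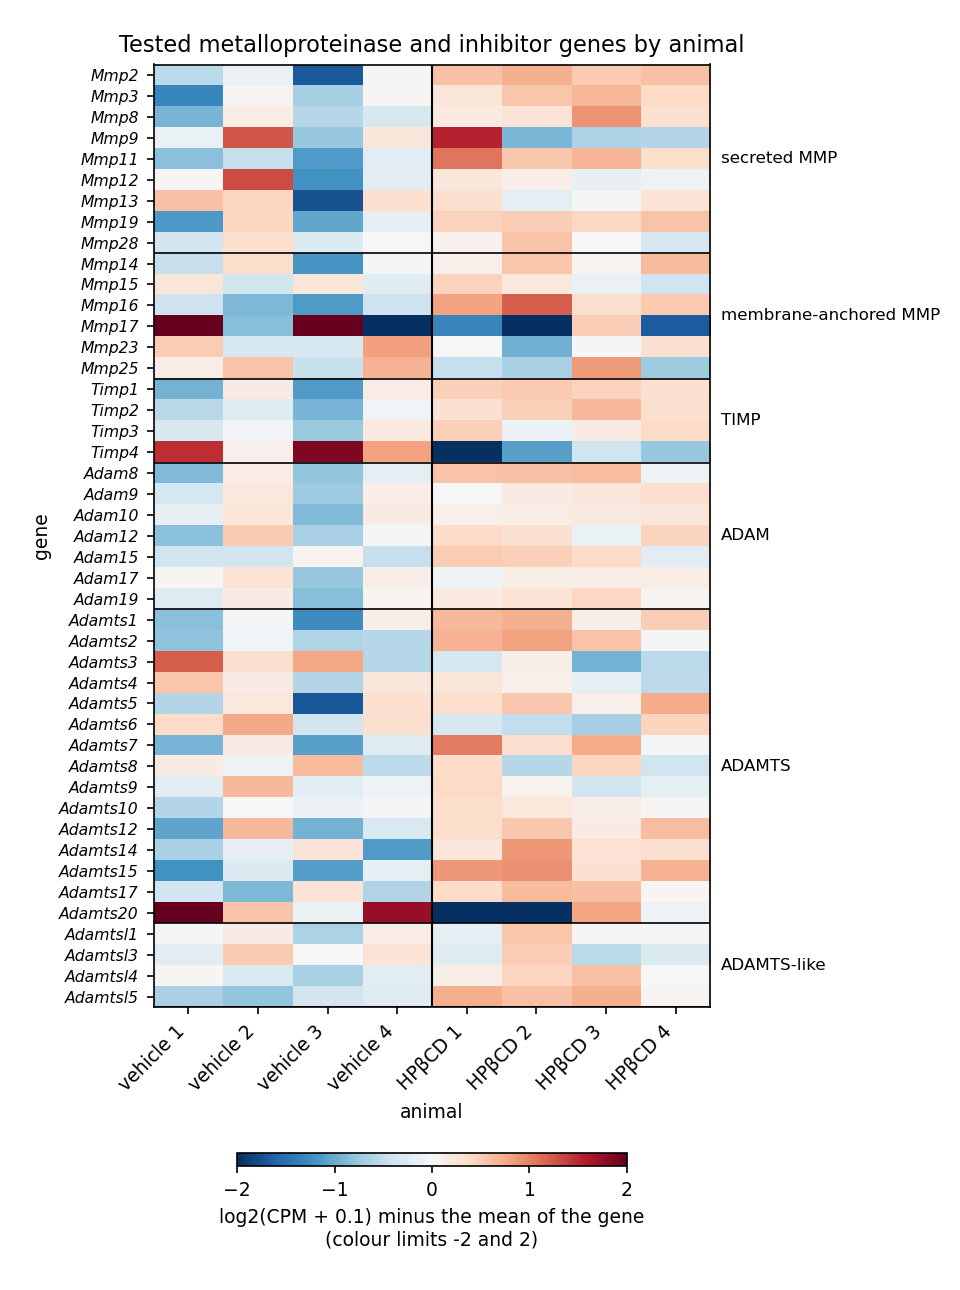
Expression of the 45 tested genes (rows, by class) in the 8 infarcts (columns), as log2(CPM + 0.1) minus the mean of the gene over the 8 animals, with colours limited at -2 and 2. Vehicle 1 and vehicle 3 hold the lowest value of 29 of the 45 rows, and Mmp17 and Timp4 run the other way.

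Sequences just upstream of the transcription start are shown for 5 genes that differ in level and direction: Mmp11 and Adamtsl5, which were called higher, Timp4, whose groups did not overlap in the other direction, and Mmp3 and Mmp13 of the MMP cluster on chromosome 9, of which the first was the most abundant MMP and the second did not separate the groups. Each is the 250 bases before the RefSeq start on GRCm38.p6, written 5′ to 3′ on the strand of the gene and free of annotated exons. The Mmp11 stretch lies inside the GENCODE span of that gene (chr10:75923222-75936496), which begins further upstream than the RefSeq start used. Capitals mark exact matches on either strand to 4 motifs. The AP-1 motif was searched as TGACTCA and the TATA box as TATAAA. For ETS factors the letters were AGGAAG, and for the GC box they were GGGCGG.
Mmp11, chr10:75932503-75932752, minus strand: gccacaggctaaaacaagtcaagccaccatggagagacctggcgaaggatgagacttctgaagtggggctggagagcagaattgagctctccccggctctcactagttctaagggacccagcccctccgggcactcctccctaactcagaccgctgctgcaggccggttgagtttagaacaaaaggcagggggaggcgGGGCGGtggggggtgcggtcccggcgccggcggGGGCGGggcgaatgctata
Adamtsl5, chr10:80348449-80348698, minus strand: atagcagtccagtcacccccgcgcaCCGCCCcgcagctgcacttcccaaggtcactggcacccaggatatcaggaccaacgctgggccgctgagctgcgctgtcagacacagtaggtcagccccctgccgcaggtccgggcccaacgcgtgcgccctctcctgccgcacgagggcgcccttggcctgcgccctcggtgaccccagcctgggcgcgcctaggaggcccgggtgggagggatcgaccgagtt
Timp4, chr6:115252206-115252455, minus strand: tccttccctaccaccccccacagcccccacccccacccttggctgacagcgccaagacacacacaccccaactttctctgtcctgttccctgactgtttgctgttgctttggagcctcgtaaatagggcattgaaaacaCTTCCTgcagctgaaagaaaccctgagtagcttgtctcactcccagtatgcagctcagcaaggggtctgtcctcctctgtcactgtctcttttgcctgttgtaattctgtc
Mmp3, chr9:7445572-7445821, plus strand: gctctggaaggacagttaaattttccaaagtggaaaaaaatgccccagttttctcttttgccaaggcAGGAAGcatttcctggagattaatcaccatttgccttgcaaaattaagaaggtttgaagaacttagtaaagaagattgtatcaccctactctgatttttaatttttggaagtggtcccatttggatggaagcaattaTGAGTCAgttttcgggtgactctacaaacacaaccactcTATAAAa
Mmp13, chr9:7272264-7272513, plus strand: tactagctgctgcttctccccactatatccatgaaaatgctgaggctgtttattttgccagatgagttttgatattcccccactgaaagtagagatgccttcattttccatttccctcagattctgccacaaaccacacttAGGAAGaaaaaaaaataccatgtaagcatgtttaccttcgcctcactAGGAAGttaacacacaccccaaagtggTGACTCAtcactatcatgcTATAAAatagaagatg

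The promoters of Mmp11 and Adamtsl5 held GC boxes and none of the other motifs, at 63.2% and 70.8% G and C. The promoters of Mmp3 and Mmp13 each held an AP-1 motif and a TATA box beside ETS motifs, at 37.6% and 40.4% G and C, and that of Timp4 held 1 ETS motif. RefSeq starts were matched for 33 of the 50 genes, with 37 promoters in all. AP-1 motifs were found in 4 of the 37 (Adam19, Mmp12, Mmp13 and Mmp3) and in 4.46% of the 32851 promoters of the table. GC boxes were found in 24 of the 37, ETS motifs in 13 and TATA boxes in 4, against 32.7%, 29.5% and 12.4% of all promoters. Of the genes with both an AP-1 and a TATA match, Mmp3 was higher in all 4 HPβCD infarcts and Mmp13 overlapped between the groups. A match describes these letters and does not show binding.

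Among the secreted MMPs, Mmp11 rose, and Mmp3 and Mmp2 were higher in all 4 HPβCD infarcts without passing the edgeR threshold (DESeq2 adjusted p = 0.0505 and 0.0142). Over all 8 infarcts Mmp3 and Mmp2 had the highest mean CPM per kb of the class, at 302 and 42.0, but in vehicle infarcts Mmp12 (38.7) and Mmp13 (37.1) exceeded Mmp2 (27.0). The class had 1 of 9 genes called, 6 of 9 higher, and a median log2 fold change of 0.82, which fell to 0.33 without vehicle 1 and vehicle 3. Mmp11 (stromelysin-3; chr10:75923222-75936496, GRCm38), which is activated inside the cell by furin and is known from stromal fibroblasts, was at 14.5, 19.1, 11.9 and 22.7 CPM in vehicle 1 to 4 and at 54.8, 38.1, 41.9 and 33.4 CPM in HPβCD 1 to 4. The highest vehicle infarct was below the lowest HPβCD infarct. The log2 fold change of Mmp11 was 1.30 ± 0.24 (edgeR adjusted p = 0.0483), and 1.02 without vehicle 1 and vehicle 3 (edgeR adjusted p = 0.0572). Of its exon bases, 5.58% overlap Chchd10 on the opposite strand.

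Mmp3 (stromelysin-1), which degrades proteoglycans and activates other MMPs, had the highest level per length of all MMPs, with a mean of 216 CPM per kb in vehicle infarcts and 388 in HPβCD infarcts. It was at 204, 520.4, 317 and 518 CPM in vehicle 1 to 4 and at 596, 735, 799 and 665 CPM in HPβCD 1 to 4. The groups did not overlap, but vehicle 2 and vehicle 4 lay close below the HPβCD infarcts while vehicle 1 and vehicle 3 lay far below. The log2 fold change of 0.84 ± 0.30 did not pass (edgeR adjusted p = 0.113) and was 0.44 without those animals. Mmp3 made up 35.7% to 62.4% of the summed CPM per kb of the 16 MMP genes.

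Mmp2 (gelatinase A), which cleaves denatured collagen and type IV collagen, was at 87.1, 115, 39.3 and 123 CPM in vehicle 1 to 4 and at 190.1, 207, 182 and 189 CPM in HPβCD 1 to 4. The 4 HPβCD infarcts were close to each other and all above the vehicle infarcts, of which vehicle 3 was lowest. Mmp2 had a log2 fold change of 1.08 ± 0.31 (edgeR adjusted p = 0.0814), and 0.71 with edgeR adjusted p = 0.0443 without vehicle 1 and vehicle 3. Mmp8 (neutrophil collagenase) was at 7.69, 16.3, 9.87 and 11.8 CPM in vehicle 1 to 4 and at 16.8, 18.0, 27.6 and 18.4 CPM in HPβCD 1 to 4. Its groups were separated by a narrow gap between vehicle 2 and HPβCD 1. The difference of Mmp8 was a log2 fold change of 0.82 ± 0.26 (edgeR adjusted p = 0.0956; DESeq2 adjusted p = 0.0396). Neutrophil markers summed to between 57.4 and 82.1 CPM in the vehicle group and between 61.5 and 136 CPM in the HPβCD group, Csf3r being the most abundant marker, with 0 of 4 tested markers called and 0 at an unadjusted p under 0.05 by edgeR, and 0 called by DESeq2.

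The other 5 secreted MMPs overlapped between the groups. Mmp12, the macrophage elastase, had means of 279.9 ± 207 CPM in the vehicle group and 240.0 ± 29.6 CPM in the HPβCD group, and Mmp13, a collagenase, had means of 99.1 ± 49.1 and 97.2 ± 16.8 CPM. Mmp9 (gelatinase B) had means of 37.9 ± 23.5 and 35.6 ± 34.4 CPM, with log2 fold change -0.09 ± 0.67. The large SE of Mmp9 came with 1 infarct in each group, vehicle 2 at 71.5 CPM and HPβCD 1 at 87.2 CPM, while the others ranged from 15.9 to 35.3 CPM. Mmp19 had the largest difference among these 5, with log2 fold change 0.82 ± 0.33 (edgeR adjusted p = 0.152), and Mmp28 lay at 0.17 ± 0.26. Thus of the gelatinases the groups were separate for Mmp2 and overlapped for Mmp9, and of the collagenases they were separate for Mmp8 and overlapped for Mmp13. A difference between the members of either kind was not tested. Mmp8 and Mmp13 lie with Mmp3 and Mmp12 in a single cluster on chromosome 9.

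**Figure D2:**
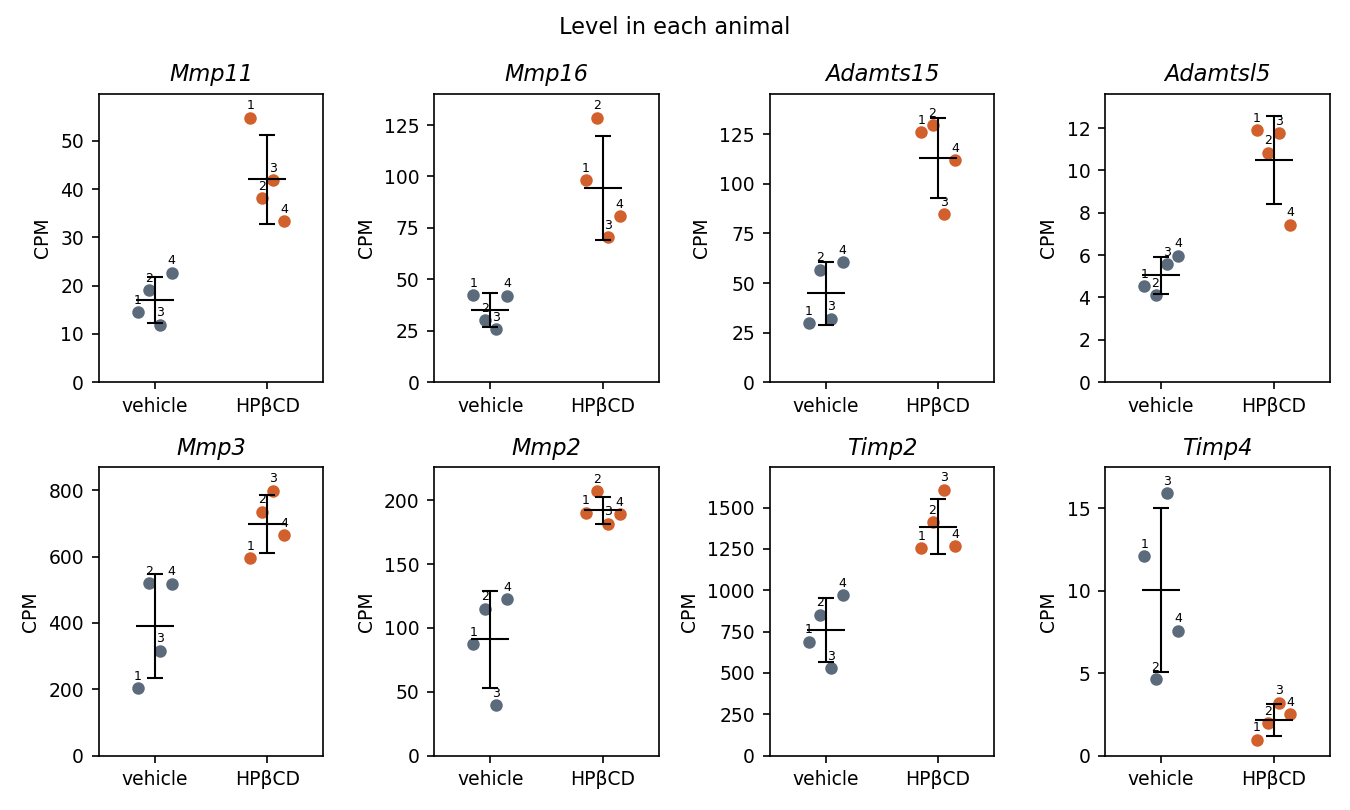
CPM in each infarct (points, numbered by animal) for the 4 genes called higher (top) and for Mmp3, Mmp2, Timp2 and Timp4 (bottom), with the mean and SD of each group of 4 as bars and the axis from 0. The groups do not overlap in any of the 8 panels, and Timp4 alone is lower in the HPβCD infarcts.

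Among the membrane-anchored MMPs, Mmp16 rose and the other 5 tested genes overlapped between the groups. The class had 3 of 6 genes higher and a median log2 fold change of -0.15, which was 0.30 without vehicle 1 and vehicle 3. Mmp16 (MT3-MMP; chr4:17852893-18119145, GRCm38), a transmembrane enzyme that activates pro-Mmp2, was at 42.4, 30.3, 25.7 and 42.1 CPM in vehicle 1 to 4 and at 98.3, 128, 70.5 and 80.8 CPM in HPβCD 1 to 4. Every HPβCD infarct was above every vehicle infarct by a wide gap, and vehicle 1 and vehicle 4 were nearly equal. Mmp16 had a log2 fold change of 1.43 ± 0.24 (edgeR adjusted p = 0.0472), the largest among the 45 genes, and it was 1.40 with edgeR adjusted p = 0.0443 without vehicle 1 and vehicle 3.

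Mmp14 (MT1-MMP), the principal activator of pro-Mmp2 at the cell surface, was the most abundant of the class with a mean of 65.0 CPM per kb in vehicle infarcts and 97.6 in HPβCD infarcts. It was at 328, 581, 201 and 441 CPM in vehicle 1 to 4 and at 485, 666, 471 and 706 CPM in HPβCD 1 to 4. Vehicle 2 was within the HPβCD range. The log2 fold change of 0.59 ± 0.31 did not pass (edgeR adjusted p = 0.26). Mmp15 had log2 fold change 0.08 ± 0.24, Mmp23 had -0.38 ± 0.42 and Mmp25 had -0.39 ± 0.42.

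Mmp17 (MT4-MMP), a lipid-anchored enzyme, carried the lowest log2 fold change of the tested genes at -4.06 ± 1.55 (edgeR adjusted p = 0.143; DESeq2 adjusted p = 0.0243), but the difference lay in vehicle 1 and vehicle 3. These infarcts had the highest sums of both neuron and astrocyte markers, and the part of either cell type in the Mmp17 levels was not tested. Vehicle 1 and vehicle 3 were at 20.8 and 58.2 CPM, whereas vehicle 2 and vehicle 4 were at 1.15 and 0.43 CPM. The HPβCD infarcts were at 0.804, 0.306, 3.06 and 0.611 CPM, on both sides of vehicle 2 and vehicle 4. Without vehicle 1 and vehicle 3 the log2 fold change was 0.58. Mmp24 (MT5-MMP), an enzyme known from neurons, was too low to be tested by edgeR, and had the same arrangement with 4.30 CPM in vehicle 1, 11.9 CPM in vehicle 3 and at most 0.258 CPM in the other 6 infarcts. DESeq2 called it lower (adjusted p = 0.00179).

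**Figure D3:**
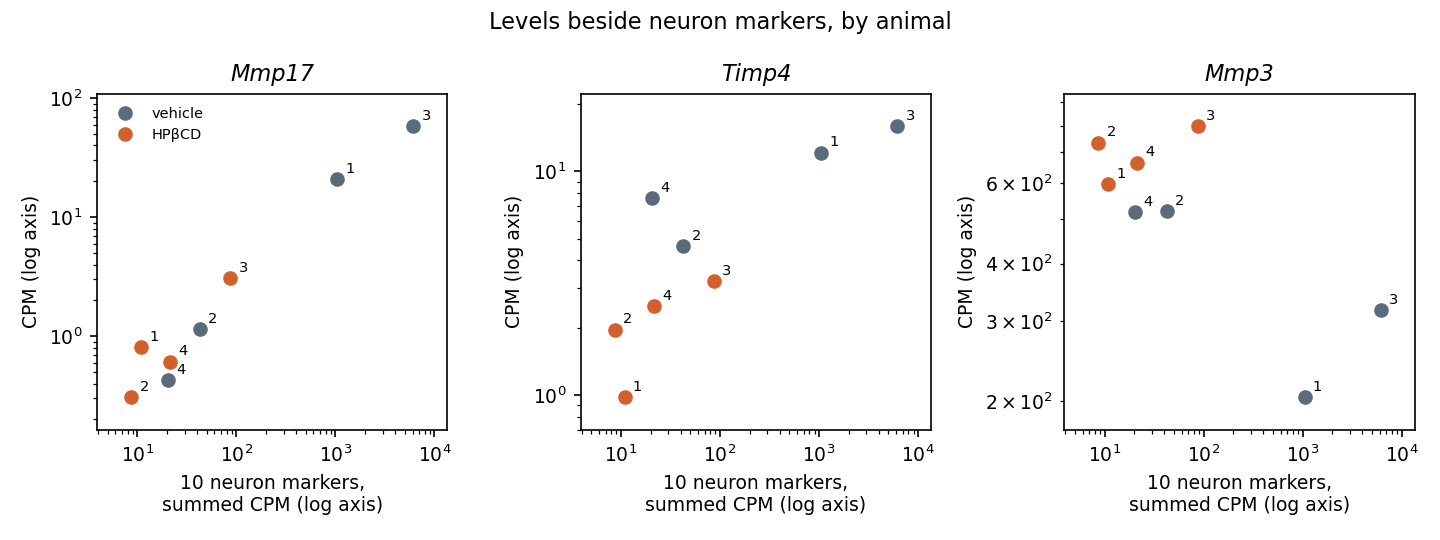
CPM of Mmp17, Timp4 and Mmp3 in each infarct (points, numbered by animal) against the summed CPM of 10 neuron markers, both axes on a log scale. Vehicle 1 and vehicle 3 lie at 1047 and 6137 CPM of neuron markers, are highest for Mmp17 and Timp4 and lowest for Mmp3.

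TIMPs were split, with Timp2 and Timp1 higher in every HPβCD infarct and Timp4 lower in every HPβCD infarct, although 0 of the 4 genes passed the adjusted threshold (3 at an unadjusted p under 0.05 by edgeR; DESeq2 called Timp2 higher and Timp4 lower). Timp2, which inhibits MMPs and also takes part in the activation of pro-Mmp2 by Mmp14, was the most abundant inhibitor and made up 64.0% to 73.8% of the summed CPM per kb of the TIMPs. It was at 689.9, 853, 529 and 971 CPM in vehicle 1 to 4 and at 1255, 1412, 1608 and 1266 CPM in HPβCD 1 to 4. The lowest HPβCD infarct was well above the highest vehicle infarct. Timp2 had a log2 fold change of 0.86 ± 0.22 (edgeR adjusted p = 0.0658), and 0.62 without vehicle 1 and vehicle 3.

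Timp1, an inducible inhibitor, was at 36.5, 79.2, 32.1 and 78.5 CPM in vehicle 1 to 4 and at 98.7, 102, 95.7 and 87.5 CPM in HPβCD 1 to 4. The groups were separate, with vehicle 2 and vehicle 4 close to the HPβCD infarcts and vehicle 1 and vehicle 3 far below. Timp1 had a log2 fold change of 0.76 ± 0.30 (edgeR adjusted p = 0.146) and was 0.30 without the latter. Timp3, which binds matrix and also inhibits ADAM17, overlapped between the groups with log2 fold change 0.43 ± 0.22 (edgeR adjusted p = 0.246), and 21.3% of its exon bases overlap Syn3, a neuronal gene, on the opposite strand.

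Timp4 (chr6:115241892-115252205, GRCm38), the TIMP with the lowest level, was at 12.1, 4.62, 15.9 and 7.58 CPM in vehicle 1 to 4 and at 0.977, 1.96, 3.22 and 2.5 CPM in HPβCD 1 to 4. All 4 HPβCD infarcts were below all 4 vehicle infarcts, and the highest vehicle infarcts were those rich in neuron markers. Astrocyte markers summed to 7412, 2259, 9777 and 3731 CPM in vehicle 1 to 4 and to 643, 838, 2618 and 1465 CPM in HPβCD 1 to 4. Within each group Timp4 had the same order as these sums, which was seen after the values were read. The part of either cell type in the Timp4 levels was not tested. The log2 fold change of Timp4 was -2.21 ± 0.47 with edgeR adjusted p = 0.0516, just outside the threshold, and DESeq2 adjusted p = 0.000211. Without vehicle 1 and vehicle 3 it was -1.47 (edgeR adjusted p = 0.112). Syn2, the neuronal gene in whose intron Timp4 lies, overlaps 1.53% of its exon bases on the opposite strand.

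Summed over the genes of a family, secreted MMPs, TIMPs and ADAMTS genes were separate between the groups, with ratios of the HPβCD to the vehicle mean of 1.61, 1.74 and 1.76, whereas membrane-anchored MMPs, ADAMs and ADAMTS-like genes overlapped, with ratios of 1.46, 1.26 and 1.1. The 16 MMP genes summed to 317, 615, 287 and 519 CPM per kb in vehicle 1 to 4 and to 644, 719.6, 711 and 682 CPM per kb in HPβCD 1 to 4. The 4 TIMPs summed to 248, 342, 195 and 378 CPM per kb in vehicle and to 481, 509, 559.6 and 469 CPM per kb in HPβCD infarcts. Neither sum overlapped between the groups, and the ratio of the group means was 1.59 for MMPs and 1.74 for TIMPs. The ratio of the MMP sum to the TIMP sum was 1.28, 1.80, 1.47 and 1.37 in vehicle 1 to 4 and 1.34, 1.41, 1.27 and 1.46 in HPβCD 1 to 4. These ratios overlapped, with means of 1.48 ± 0.225 and 1.37 ± 0.082 (n = 4 each). They compare transcripts and not enzyme activity. The sums follow their most abundant genes, since without Mmp3 the MMP sums overlapped between the groups, with a ratio of means of 1.38.

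**Figure D4:**
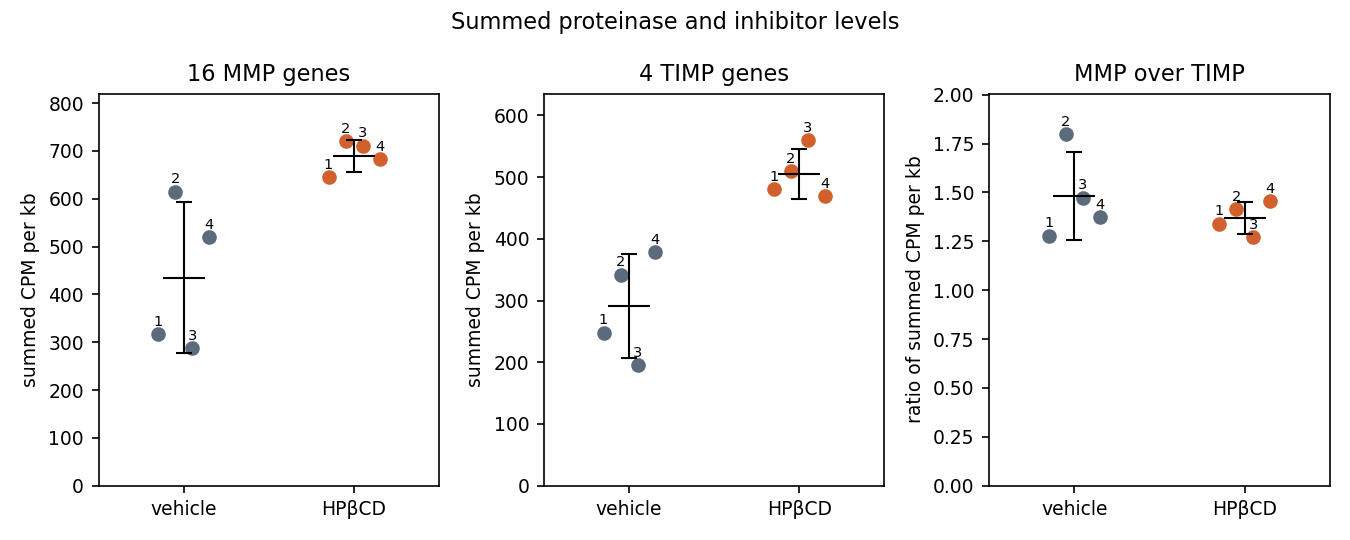
Summed CPM per kb of the 16 MMP genes (left), of the 4 TIMP genes (middle) and their ratio (right) in each infarct (points, numbered by animal), with the mean and SD of each group of 4 as bars and the axis from 0. Both sums are separate between the groups and the ratio is not.

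The ADAM sheddases were higher in HPβCD infarcts for 7 of 7 genes, where 45.9% of all tested genes were higher. Of the 7, edgeR called 0 (2 at an unadjusted p under 0.05 by edgeR; DESeq2 called Adam8 and Adam15). Their median log2 fold change of 0.41 was 0.03 without vehicle 1 and vehicle 3. Adam10, the constitutive α-secretase that also cleaves Notch, was the most abundant with a mean of 83.9 CPM per kb in vehicle infarcts and 100.5 in HPβCD infarcts. It was at 395, 522, 238 and 494 CPM in vehicle 1 to 4 and at 471, 487, 499.9 and 517 CPM in HPβCD 1 to 4. Only vehicle 1 and vehicle 3 were below the HPβCD range. Adam9 was at 179.8, 266, 139.8 and 253 CPM in vehicle 1 to 4 and at 232, 257, 269 and 292 CPM in HPβCD 1 to 4, with the same 2 vehicle infarcts below the HPβCD range. The log2 fold changes were 0.26 ± 0.24 for Adam10 and 0.32 ± 0.21 for Adam9. Adam17, the enzyme that releases tumor necrosis factor, had log2 fold change 0.12 ± 0.21.

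Adam8, a sheddase of leukocytes, had the largest difference of the ADAMs. It had log2 fold change 0.82 ± 0.26 (edgeR adjusted p = 0.097), with vehicle 2 at 96.3 CPM above HPβCD 4 at 82.2 CPM. Without vehicle 1 and vehicle 3 this was 0.48. Adam15 moved less with those animals, as its log2 fold change was 0.59 ± 0.20 over all animals (edgeR adjusted p = 0.106) and 0.75 without them, while 20.6% of its exon bases overlap another gene on the opposite strand. Adam12 and Adam19 lay at 0.41 ± 0.29 and 0.42 ± 0.22.

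Among the ADAMTS proteinases, Adamts15 rose, Adamts1, Adamts2 and Adamts10 were separate between the groups without being called by edgeR (DESeq2 adjusted p = 0.0454 for Adamts1, 0.00197 for Adamts2 and 0.32 for Adamts10). The class had 1 of 15 tested genes called, 9 of 15 higher, and a median log2 fold change of 0.68, or 0.22 without vehicle 1 and vehicle 3. Adamts15 (chr9:30899155-30922452, GRCm38), which cleaves versican and aggrecan, was at 29.9, 56.8, 32.1 and 60.4 CPM in vehicle 1 to 4 and at 126, 129.7, 84.8 and 112 CPM in HPβCD 1 to 4. No vehicle infarct reached the lowest HPβCD infarct. The log2 fold change of Adamts15 was 1.34 ± 0.27 (edgeR adjusted p = 0.0483), and 0.96 with edgeR adjusted p = 0.0468 without vehicle 1 and vehicle 3.

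Adamts2, the procollagen N-proteinase of fibrillar collagens, was at 42.4, 70.9, 49 and 50 CPM in vehicle 1 to 4 and at 120.3, 129, 109.9 and 71.7 CPM in HPβCD 1 to 4. The groups nearly touched between vehicle 2 and HPβCD 4. Adamts2 had a log2 fold change of 1.02 ± 0.22 (edgeR adjusted p = 0.0555), and 0.85 without vehicle 1 and vehicle 3. The related N-proteinase Adamts14 lay at 0.84 ± 0.36, whereas Adamts3 lay at -0.99 ± 0.41 and at -0.34 without vehicle 1 and vehicle 3. edgeR called none of these 3 enzymes (adjusted p = 0.0555, 0.17 and 0.162). By level per length Adamts2 exceeded the other 2 in both groups.

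Adamts1, a proteoglycanase induced by inflammation, had the highest level per length of the class, with a mean of 9.82 CPM per kb in vehicle infarcts and 18.4 in HPβCD infarcts. It was at 38.1, 67.3, 28.5 and 74.4 CPM in vehicle 1 to 4 and at 107, 112, 74.4 and 96.1 CPM in HPβCD 1 to 4. Vehicle 4 and HPβCD 3 were equal to the digits given. For Adamts1 the log2 fold change was 0.91 ± 0.31 (edgeR adjusted p = 0.105), and 0.48 without vehicle 1 and vehicle 3. Adamts10, which binds fibrillin, was at 3.11, 4.76, 4.36 and 4.63 CPM in vehicle 1 to 4 and at 6.09, 5.51, 5.21 and 4.83 CPM in HPβCD 1 to 4. The gap between its groups was small, and the log2 fold change was 0.36 ± 0.20 (edgeR adjusted p = 0.282).

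Of the 7 proteoglycanases in the list, 3 were higher and 4 lower. Adamts4 and Adamts5, the classical aggrecanases, lay at log2 fold changes of -0.21 ± 0.27 and 0.69 ± 0.40, and Adamts9, Adamts8 and Adamts20 at -0.07 ± 0.25, -0.08 ± 0.38 and -1.99 ± 0.95. Adamts7 and Adamts12, which cleave cartilage oligomeric matrix protein, lay at 1.04 ± 0.36 and 0.68 ± 0.38. Adamts17 and Adamts6 lay at 0.81 ± 0.31 and -0.54 ± 0.34. The groups overlapped for these 9 genes. Adamts16, Adamts18 and Adamts19 were at most at 0.303, 0.182 and 0.121 CPM in any infarct, and were not tested. For scale, 3 counts correspond to 0.0861 to 0.184 CPM in these libraries.

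Among the ADAMTS-like proteins, Adamtsl5 rose and 1 of 4 tested genes was lower. Adamtsl5 (chr10:80339110-80348412, GRCm38), which associates with fibrillin microfibrils, was at 4.53, 4.10, 5.57 and 5.97 CPM in vehicle 1 to 4 and at 11.9, 10.8, 11.8 and 7.44 CPM in HPβCD 1 to 4. HPβCD 4 was the lowest treated infarct and still above every vehicle infarct. Adamtsl5 had a log2 fold change of 1.06 ± 0.22 (edgeR adjusted p = 0.0499), next to the threshold, and 1.08 without vehicle 1 and vehicle 3 (edgeR adjusted p = 0.0843).

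Adamtsl3 was the most abundant of the class, at 45.4, 75.4, 52.8 and 63.7 CPM in vehicle 1 to 4 and at 44.8, 73.9, 36.2 and 43.3 CPM in HPβCD 1 to 4. Adamtsl4, another protein of fibrillin microfibrils, was at 13.3, 10.7, 8.29 and 11.1 CPM in vehicle 1 to 4 and at 14.2, 17.6, 19.7 and 13 CPM in HPβCD 1 to 4. Both overlapped between the groups, Adamtsl4 only through vehicle 1 and HPβCD 4. The log2 fold changes were -0.26 ± 0.25 for Adamtsl3 and 0.57 ± 0.20 for Adamtsl4 (edgeR adjusted p = 0.546 and 0.114). Adamtsl1 lay at 0.17 ± 0.23, and Adamtsl2 was not tested, with at most 2.24 CPM, in vehicle 3.

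**Figure D5:**
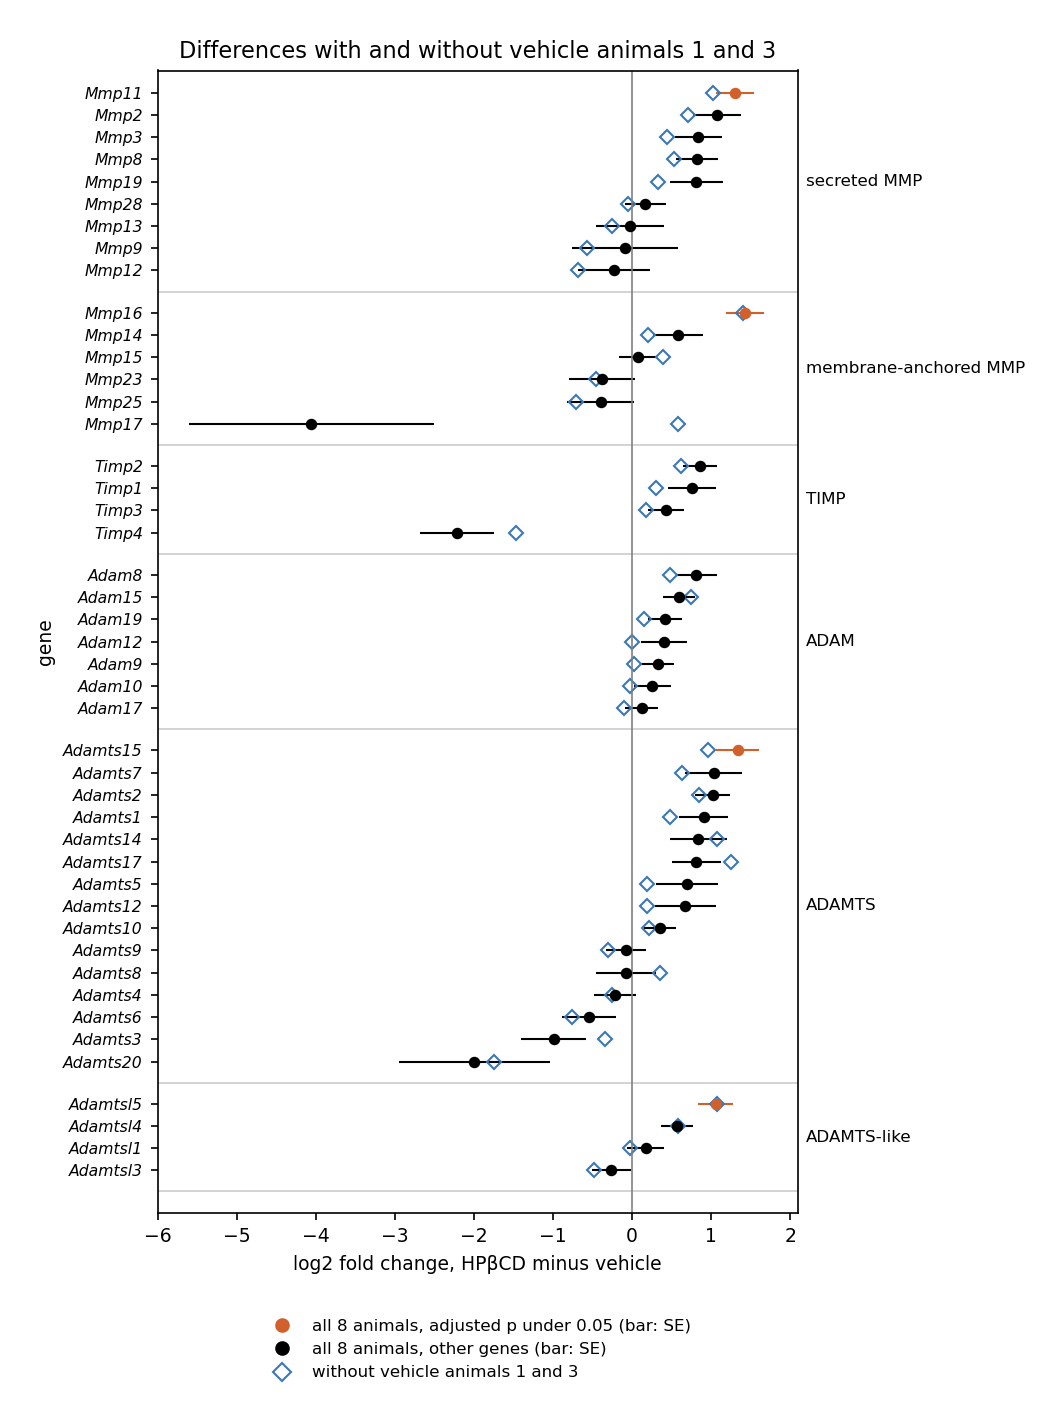
Log2 fold change (HPβCD minus vehicle) of the 45 tested genes by class over all 8 animals, with the SE as a bar and the 4 called genes in orange, and without vehicle 1 and vehicle 3 (open diamonds). Mmp16 and Adamtsl5 keep their place, Mmp17 moves from -4.06 to 0.58, and the ADAM genes other than Adam8 and Adam15 move close to 0.

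The spread between animals was larger in the vehicle group. The median SD of log2 CPM over the 45 genes was 0.492 in vehicle and 0.303 in HPβCD infarcts, compared with 0.36 and 0.257 over all tested genes. The lowest infarct of the 8 was vehicle 1 or vehicle 3 for 29 of the 45 genes (64.4%), and for 37.9% of all genes. The highest of the vehicle infarcts was vehicle 3 for 40.9% of all genes, and 7 of the 45 genes (15.6%) were highest among the vehicle infarcts in vehicle 3, namely Mmp15, Mmp17, Timp4, Adam15, Adamts8, Adamts14 and Adamts17.

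Genes that activate or assist these enzymes, and their substrates, were followed in further lists. Over all genes, 27.8% had an unadjusted edgeR p under 0.05. The plasminogen system, which activates MMPs, had 0 of 9 tested genes called by edgeR, with 2 at an unadjusted p under 0.05. DESeq2 called 2 higher, and the median log2 fold change was 0.38. Its most abundant gene, Anxa2, a cell-surface receptor of plasminogen, had means of 287 ± 46.1 CPM in the vehicle group and 474 ± 90.3 CPM in the HPβCD group. Plg, plasminogen itself, had 0 counts in all 8 libraries. Proprotein convertases, inducers and other inhibitors had 0 of 15 called by edgeR, with 9 at an unadjusted p under 0.05. DESeq2 called 2 higher and 4 lower. The log2 fold changes of this list ranged from -4.25 to 1.13, with 8 higher, 7 lower and a median of 0.15. Bsg, the MMP inducer basigin, was its most abundant gene at 369 ± 77.0 and 410.5 ± 42.1 CPM. Other metalloproteinases had 0 of 12 tested genes called by edgeR, with 7 at an unadjusted p under 0.05. DESeq2 called 4 higher and 2 lower. The median was 0.17 and Thsd4 was the most abundant, and Mmp21 and Mep1b had 0 counts in all libraries. The partners and a substrate of the sheddases had 0 of 8 called by edgeR, with 5 at an unadjusted p under 0.05. DESeq2 called 1 higher and 1 lower, and the median was 0.34, with Itm2b the most abundant.

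The matrix genes that edgeR called were all higher in HPβCD infarcts. The fibrillar collagens, on which the N-proteinases act, and their processing factors had 3 of 8 genes called higher (Pcolce, Col1a2 and Col1a1). The median log2 fold change of this list was 1.09, or 0.71 without vehicle 1 and vehicle 3. Col1a2 was the most abundant, with means of 922 ± 246 CPM in the vehicle group and 2533 ± 436 CPM in the HPβCD group (log2 fold change 1.46 ± 0.24, edgeR adjusted p = 0.0462). Fibrillin microfibril genes, to which Adamts10 and the ADAMTS-like proteins relate, had 1 of 9 called higher, Mfap2 at 1.78 ± 0.186 and 6.06 ± 1.64 CPM (edgeR adjusted p = 0.0405), and a median of 0.94. The lecticans, the proteoglycans that ADAMTS enzymes cleave, were lower for 4 of 4 genes with a median of -1.62, but 0 were called by edgeR (3 at an unadjusted p under 0.05; DESeq2 called 3 lower). Ncan, the most abundant, was at 99.9, 25.7, 205 and 53.7 CPM in vehicle 1 to 4 and between 14.8 and 22.8 CPM in HPβCD infarcts, and without vehicle 1 and vehicle 3 the lectican median was -0.94. The summed fibroblast and foamy macrophage markers were higher in every HPβCD infarct than in any vehicle infarct, with the neuron and astrocyte sums as given above, and their part in these values was not tested.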

How the data were processed

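Infarct RNA of 8 mice, 4 per group as labelled, was analysed. The authors prepared TruSeq stranded mRNA libraries, trimmed reads with Trimmomatic 0.32, aligned them to GRCm38 with STAR 2.5.2b and counted reads per gene with HTSeq. The deposited values, 1 table per animal, are the authors' raw gene counts without normalisation. The strand option and annotation release of the counting were not given in the sources used here. Reads from exon bases that overlap a gene on the other strand may thus be counted for either gene, or for neither as ambiguous. Ambiguous reads made up 4.05% to 6.7% of a library. Lines of unassigned reads (26.6% to 36.6% of a library) were left out. Symbols and exon lengths were taken from GENCODE M21 (45143 of 46078 identifiers matched).

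Genes were kept by edgeR's filterByExpr, scaled by TMM and tested with the robust quasi-likelihood test (edgeR 4.0.16, R 4.3.3). Fits, tested on simulated counts beforehand, were repeated with DESeq2 1.42.0, limma 3.58.1 (voom with sample weights), other filters and scalings, thinned counts, a replicate block and without single animals or vehicle 1 and 3. Every pair of libraries differed by more than sampling noise (lowest chi-square per degree of freedom 20.3). The labels give no batch, so none could be examined. Values of every animal were given for genes called, genes whose groups did not overlap and the 2 most abundant per length in each class; Mmp9, Mmp12, Mmp17, Mmp24 and Adam8 were singled out after their values were seen. From the further lists, the genes edgeR called and the most abundant gene were named, except for 1 item that is not reported here. The members and all lists were chosen with earlier results of these data known. Promoters were read from RefSeq (GRCm38.p6).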

Additional observations from a re-analysis of the deposited data

Results flagged for a closer look

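In 9 of 102 groups of 4 infarcts, 1 infarct stood far from the other 3 (its gap to the nearest, as a share of the whole range, exceeded Dixon's critical value at the 95% level). Chance gives about 5.1 such groups. On the scale of log2 CPM, Mmp9 stood high in HPβCD 1 at 6.45 (others 4.00 to 4.32), Mmp25 in HPβCD 3 at 2.89 (others 1.32 to 1.57), Adamts14 in HPβCD 2 at 1.35 (others 0.72 to 0.82), Adamts9 in vehicle 2 at 4.94 (others 4.07 to 4.20) and Adam15 in vehicle 3 at 5.0 (others 4.47 to 4.55). Mmp13 stood low in vehicle 3 at 4.74 (others 6.83 to 7.08), and Adam8 and Adam15 in HPβCD 4 at 6.36 (others 7.02 to 7.06) and 4.72 (others 5.31 to 5.43). Adam17 stood low in HPβCD 1 at 7.29 (others 7.51 to 7.52). edgeR called none of these genes. DESeq2 called Adam8 and Adam15 higher, and limma-voom called Adam8, Adam15 and Adamts14 higher and Mmp25 lower.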

How the results depend on the processing

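The number of genes of the list called depended on the test. Of the 45 genes, DESeq2 called 11 higher and 2 lower (2899 of all genes, and Mmp24 lower among the other 5) and limma-voom 13 and 4 (3253 overall; TIMP median 0.354, ADAMTS median 0.373), whereas edgeR without its robust option called 1 (98 overall) and library totals without TMM called 0 (11 overall), with a median of all genes of -0.13. No filter on low counts, and a filter of 1 CPM in 4 libraries, each added 1 lower call (Timp4), and the former gave 5 higher calls, with Adamts2 added. The replicate numbers are not stated to pair the animals. Correlations were -0.257 to 0.329 for same-numbered animals and -0.386 to 0.346 for the others. With 4 animals per group these values cannot decide whether the numbers pair animals. The fit with the replicate block called 0 genes of the list and 9 overall (ADAMTS median 0.843). Leaving out 1 animal gave 0 to 5 higher and 0 to 1 lower calls of the list and 0 to 629 overall. The class medians then ranged from 0.632 to 1.017 (secreted MMPs), -0.179 to -0.004 (membrane-anchored MMPs), 0.428 to 0.787 (TIMPs), 0.252 to 0.559 (ADAMs), 0.418 to 0.752 (ADAMTS) and 0.244 to 0.453 (ADAMTS-like). Without vehicle 1 and vehicle 3 they were 0.335, 0.298, 0.239, 0.031 and 0.218 in the first 5 classes. The cause of these changes was not tested.

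None of the reversed log2 fold changes passed the threshold in either fit. They were Adam17 -0.039, Adamts8 0.136 and Adamts9 0.01 with limma-voom, Mmp15 -0.0 with library totals, and Mmp12 0.056 and Mmp13 0.165 with the replicate block. Without vehicle 1 and vehicle 3 they were Mmp28 -0.05, Mmp17 0.58, Adam10 -0.026, Adam17 -0.096, Adamts8 0.354 and Adamtsl1 -0.021. Leaving out 1 animal spanned 0 for 8 genes: Mmp9 (-1.037 to 0.417), Mmp12 (-0.498 to 0.415), Mmp13 (-0.339 to 0.172), Mmp28 (-0.015 to 0.334), Mmp15 (-0.074 to 0.214), Adam17 (-0.053 to 0.243), Adamts8 (-0.255 to 0.169), Adamts9 (-0.229 to 0.188). No sign changed with DESeq2, RLE scaling, the non-robust fit, the other filters or thinned counts. Depth limits Adamts16, Adamts18 and Adamts19, whose levels lay near that of 3 counts.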
